A study of Mus musculus with 18 samples.

Results

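Myc and 33 genes of ribosome biogenesis were followed through thymocytes that had just passed positive selection. The 34 genes were taken from a named list, matched to the count tables by Entrez Gene ID, and kept where at least 3 libraries reached 0.5 CPM (counts scaled to a common library total). All 34 were found and kept, out of 12798 genes tested and 27179 genes counted. The selection rule itself uses names and a minimum level and no difference between groups. The list was, however, drawn up with earlier results of these data known. The study that made the data had itself reported reduced Myc in HOIL-deficient thymocytes, so that result is not an independent one.

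The study sequenced mRNA from sorted, lineage-depleted CD69+ thymocytes of 3 genotypes, with 3 mice each, to ask how loss of a component of the linear ubiquitin chain assembly complex (LUBAC) alters gene expression after positive selection. From each mouse a CD69+ MHC I low library (the earlier stage) and a CD69+ MHC I high library (the later stage) were made, giving 18 libraries in 6 groups. Whether the WT mice carried the Cre transgene or loxP-flanked alleles was not given in the sources used here. Hoil ΔCd4 mice carried loxP-flanked Rbck1, the gene of HOIL-1, which a Cd4-Cre transgene removes in the T lineage only, from the double-positive stage on. Sharpin cpdm mice carry a spontaneous Sharpin mutation and lack SHARPIN in every cell, from before T-cell development begins. They came from a C57BL/Ka background backcrossed to C57BL/6 for only 2 generations, so SHARPIN loss and strain background cannot be told apart. Ages of the mice were not given in the sources used here.

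Ribosome production starts in the nucleolus, where RNA polymerase I transcribes the ribosomal RNA precursor. Small nucleolar ribonucleoproteins modify this precursor, and large assemblies of processing factors, helicases and GTPases fold and cut it into the small and large ribosomal subunits. MYC is a transcription factor that binds the E-box, CACGTG, as a heterodimer with MAX and is known for driving genes of this pathway in growing cells, including activated and developing T cells.

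The E-box was looked for in RefSeq promoter windows of the mouse build GRCm38.p6, each running from 250 bases before to 50 bases after an annotated transcription start. CACGTG reads the same on both strands, so each match counts for both, and no other motif was searched. Windows were at hand for 28 of the 34 genes, not for Bop1, Fbl, Myc, Npm1, Rrp12 and Rrs1. The motif was present for 5 of those 28 genes (17.9%), against 11.8% of 9985 tested genes and 8.09% of all 27025 genes with a window. A match is a description of the letters and not evidence of binding. The 5 matches are shown because they are the only places in the windows where the recognition sequence of MYC itself stands, each as 22 bases read 5′ to 3′ on the strand of the gene with the E-box in capitals. Only in Nop2 did the motif lie before the start.
Nop2, chr6:125131811-125131832, plus strand, motif starting 60 bases before the start: gtgtccctggatCACGTGtgtt
Pes1, chr11:3963965-3963986, plus strand, motif starting at base 3 of the transcript: ccctaggcagggCACGTGcggg
Wdr43, chr17:71616220-71616241, plus strand, at base 18: cgcccgggcgaaCACGTGgctg
Utp20, chr10:88826768-88826789, minus strand, at base 38: cggcactaactaCACGTGagga
Mybbp1a, chr11:72441355-72441376, plus strand, at base 41: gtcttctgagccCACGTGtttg

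The libraries held 10577966 to 16266128 gene counts. Rbck1 lay between 217.2 and 267.6 CPM in WT, at 0.2714 to 0.7785 CPM in Hoil ΔCd4 MHC I low and at 3.72 to 8.941 CPM in Hoil ΔCd4 MHC I high. Sharpin mRNA was lower in the cpdm mice, with log2 fold changes of -0.36 (low fraction) and -0.29 (high fraction). H2-K1, which encodes the MHC I chain used for sorting, ran from 157.3 to 232.4 CPM in the low and from 1725 to 2118 CPM in the high fraction, and the T-cell markers Cd3e, Cd3d, Cd3g, Lck and Cd247 summed to between 2996 and 3900 CPM. By Xist and Ddx3y, all 3 WT mice were female, whereas each mutant genotype had 1 female and 2 males. The value of the female mutant is therefore given for the listed genes called against WT in MHC I low cells. For other calls the female mutant is not singled out. The MHC I high library of Hoil ΔCd4 mouse 2, a male, stood apart with 64.63 CPM of Xist and the highest Rbck1 of its genotype. In bulk RNA, fewer cells of a type and less RNA per cell cannot be told apart.

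Levels are given as CPM, scaled by the trimmed mean of M values (TMM), for a gene across libraries, and per kilobase (RPKM) between genes. Per length, Npm1 (nucleophosmin, a nucleolar chaperone) was the most abundant of the genes, with a mean of 128 RPKM in WT MHC I low cells and 162 RPKM in WT MHC I high cells. Ncl (nucleolin) followed at 100.5 and 95.9 RPKM. Wdr12, a subunit of the PeBoW complex of large-subunit assembly, was the least abundant in WT, at 5.45 and 6.83 RPKM, and Myc lay between at 32.6 and 40.6 RPKM. A difference between groups is a log2 fold change from limma with its standard error, and was called where the p-value, adjusted by the Benjamini-Hochberg method over all 12798 genes, was under 0.05.

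Myc, on chr15:61985341-61990361, differed between genotypes in both fractions. In MHC I low cells the 3 WT mice had 75.23, 81.87 and 77.89 CPM of Myc. The Hoil ΔCd4 mice had 56.13, 57.44 and 59.5 CPM. The Sharpin cpdm mice had 70.08, 81 and 88.17 CPM. Every Hoil ΔCd4 value lay below every value of both other genotypes, while WT and Sharpin cpdm overlapped. Myc was thus lower in Hoil ΔCd4 than in WT, with a log2 fold change of -0.43 (SE 0.0903, adjusted p = 0.0136). The female Hoil ΔCd4 mouse, at 59.5 CPM, was also below the 3 WT females. The call against WT was lost without Hoil ΔCd4 mouse 3 or without WT mouse 3, with adjusted p up to 0.0595. Myc was also lower in Hoil ΔCd4 than in Sharpin cpdm MHC I low cells (log2 fold change -0.45, SE 0.0929, adjusted p = 0.00255), and this call held in all 18 alternative analyses.

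In MHC I high cells Myc was 88.02, 110.7 and 93.23 CPM in WT. It was 80.4, 104.6 and 100 CPM in Hoil ΔCd4. It was 109.8, 126.4 and 115.1 CPM in Sharpin cpdm. Here Hoil ΔCd4 and WT overlapped, with a log2 difference of 0.03 (95% interval -0.14 to 0.19) in the weighted fit and unweighted means in the opposite order, at 95.02 CPM in Hoil ΔCd4 and 97.31 CPM in WT, and the Sharpin cpdm values overlapped WT only through WT mouse 2. Myc was called higher in Sharpin cpdm than in WT (log2 fold change 0.33, SE 0.0745, adjusted p = 0.00506) and lower in Hoil ΔCd4 than in Sharpin cpdm (-0.30, SE 0.0822, adjusted p = 0.0244). Each of these calls was lost in 6 of 18 alternatives, that against WT with both edgeR and DESeq2 and that between the mutants with edgeR.

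**Figure D1:**
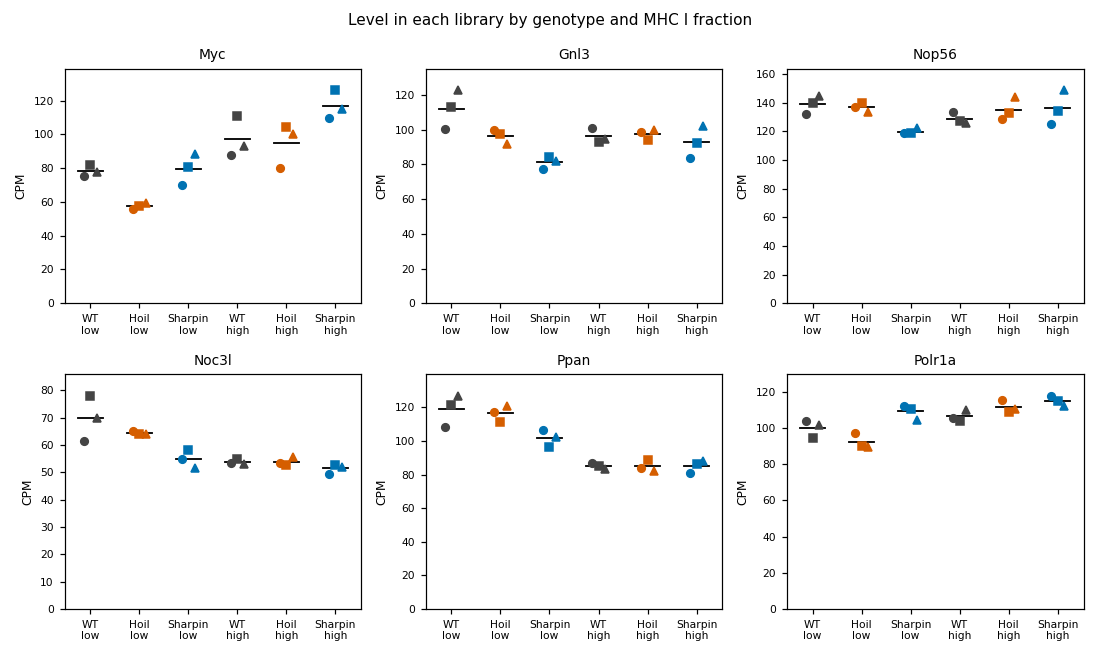
CPM of 6 genes in each of the 18 libraries (y axis, from 0), by genotype and MHC I fraction (x axis); circles, squares and triangles are mice 1, 2 and 3 of a genotype and bars are group means. Myc in Hoil ΔCd4 MHC I low cells (56.13 to 59.5 CPM) lies under all other libraries, and Gnl3 in Sharpin cpdm MHC I low cells (77.58 to 84.53 CPM) lies under all WT libraries.

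Among the ribosome biogenesis genes, few differed between genotypes. In the low fraction of Hoil ΔCd4 no gene of the 34 was called higher and 1, Myc, was called lower, where 0.422% of all tested genes were called higher and 0.563% lower. The median log2 fold change of the 34 was -0.077, beside -0.001 over all genes, and 28 of the 34 were fitted below 0. By mouse, the median without Myc, as log2 difference from the WT MHC I low mean, overlapped between the genotypes. It was -0.084, 0.017 and 0.057 in WT and -0.034, -0.129 and -0.052 in Hoil ΔCd4. The genes come from the same libraries, so their directions are not independent. The genes after Myc with the lowest p were Utp20, a component of the small-subunit processome (-0.25, adjusted p = 0.07), and Rrp1b, a large-subunit factor (-0.27, adjusted p = 0.0794). Neither passed the threshold, though 8 of 34 had an unadjusted p under 0.05. Rrp1b was 61.08, 61.14 and 61.71 CPM in WT and 56.93, 50.95 and 45.93 CPM in Hoil ΔCd4, without overlap. For the genes at large, 6 of 34 had all Hoil ΔCd4 values under all WT values and 0 the reverse, beside 7.62% and 7.07% of all tested genes.

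In the high fraction of Hoil ΔCd4 no gene of the 34 was called in either direction by limma, edgeR or DESeq2, where limma called 3.84% of all genes higher and 2.81% lower. At an unadjusted p under 0.05 there were 4. The median log2 fold change of the 34 was 0.054, beside 0 over all genes, and 28 of 34 were fitted above 0. By mouse, the median without Myc again overlapped, at -0.149, -0.127 and -0.175 in WT and -0.17, -0.1 and -0.1 in Hoil ΔCd4. The lowest p were those of Bop1, a PeBoW subunit (0.18, adjusted p = 0.0865), and Nop58, a core protein of box C/D snoRNPs (0.17, adjusted p = 0.0911).

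In Sharpin cpdm MHC I low cells 0 genes were called higher and 4 lower, where 5.31% of all genes were called higher and 6.92% lower. The 4 of 34 (11.8%) were Gnl3, Noc3l and Ppan, of large-subunit assembly, and Nop56, a snoRNP protein. The median of the 34 was -0.051, beside 0.008 over all genes.

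Gnl3 (nucleostemin, a nucleolar GTPase of large-subunit assembly; chr14:31012433-31019131) had 100.3, 113 and 122.9 CPM in WT MHC I low cells. It had 77.58, 84.53 and 82.15 CPM in Sharpin cpdm and 99.7, 97.49 and 91.8 CPM in Hoil ΔCd4. The Sharpin cpdm values lay under all values of both other genotypes. The log2 fold change against WT was -0.44 (SE 0.0714, adjusted p = 8.93e-05), and the call held in all 18 alternatives. In Hoil ΔCd4 the difference from WT was -0.21 (adjusted p = 0.279), and Hoil ΔCd4 against Sharpin cpdm gave 0.23 (adjusted p = 0.0647), so the mutants were not called different from each other.

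Noc3l (a factor in nuclear export of the large subunit precursor; chr19:38788121-38820310) had 61.46, 78.09 and 69.92 CPM in WT MHC I low cells and 54.94, 58.1 and 51.53 CPM in Sharpin cpdm. The groups did not overlap, with a log2 fold change of -0.30 (SE 0.0708, adjusted p = 0.00425) that was called in all 18 alternatives. Hoil ΔCd4 values, at 65.14, 64.1 and 64.25 CPM, fell within the WT range.

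Nop56 (a core box C/D snoRNP protein; chr2:130274367-130279313) had 132.3, 140.1 and 144.4 CPM in WT MHC I low cells and 118.9, 118.6 and 122 CPM in Sharpin cpdm. Ppan (a large-subunit assembly factor; chr9:20888175-20892179) had 108.2, 121.3 and 127 CPM in WT and 106.8, 96.67 and 102.7 CPM in Sharpin cpdm. Neither gene overlapped between the groups. Both log2 fold changes were -0.21, with adjusted p = 0.0216 for Nop56 and 0.026 for Ppan, and both calls were lost when Xist was a covariate, among other alternatives. In the female Sharpin cpdm mouse Gnl3, Noc3l, Nop56 and Ppan, at 84.53, 58.1, 118.6 and 96.67 CPM, were each below the lowest WT female. The spans of Gnl3 and Nop56 overlap those of snoRNA genes, and that of Glt8d1 for Gnl3 and of Idh3b for Nop56. Whether any reads were shared there is not known.

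In Sharpin cpdm MHC I high cells Myc alone of the 34 was called higher and none lower, where 4.15% of all genes were called higher and 4.47% lower. The median was 0.049, beside 0.003 over all genes. Gnl3, Noc3l, Nop56 and Ppan, the genes called lower at the earlier stage, had log2 fold changes of -0.05, -0.05, 0.09 and 0.02, with adjusted p from 0.362 to 0.911. Bop1 lies 101.9 kb from Sharpin. Within 1 Mb of Sharpin, 7 of 57 tested genes were called at the earlier stage of cpdm mice and 3 at the later. Of all genes, 5.31% were called higher and 6.92% lower at the earlier stage, and 4.15% and 4.47% at the later. Bop1 itself was not called (0.12 and 0.14, adjusted p = 0.232 and 0.127). Myc lies on the same chromosome as Sharpin, at a distance of 14356.7 kb. Whether it lies in a C57BL/Ka segment was not tested.

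**Figure D2:**
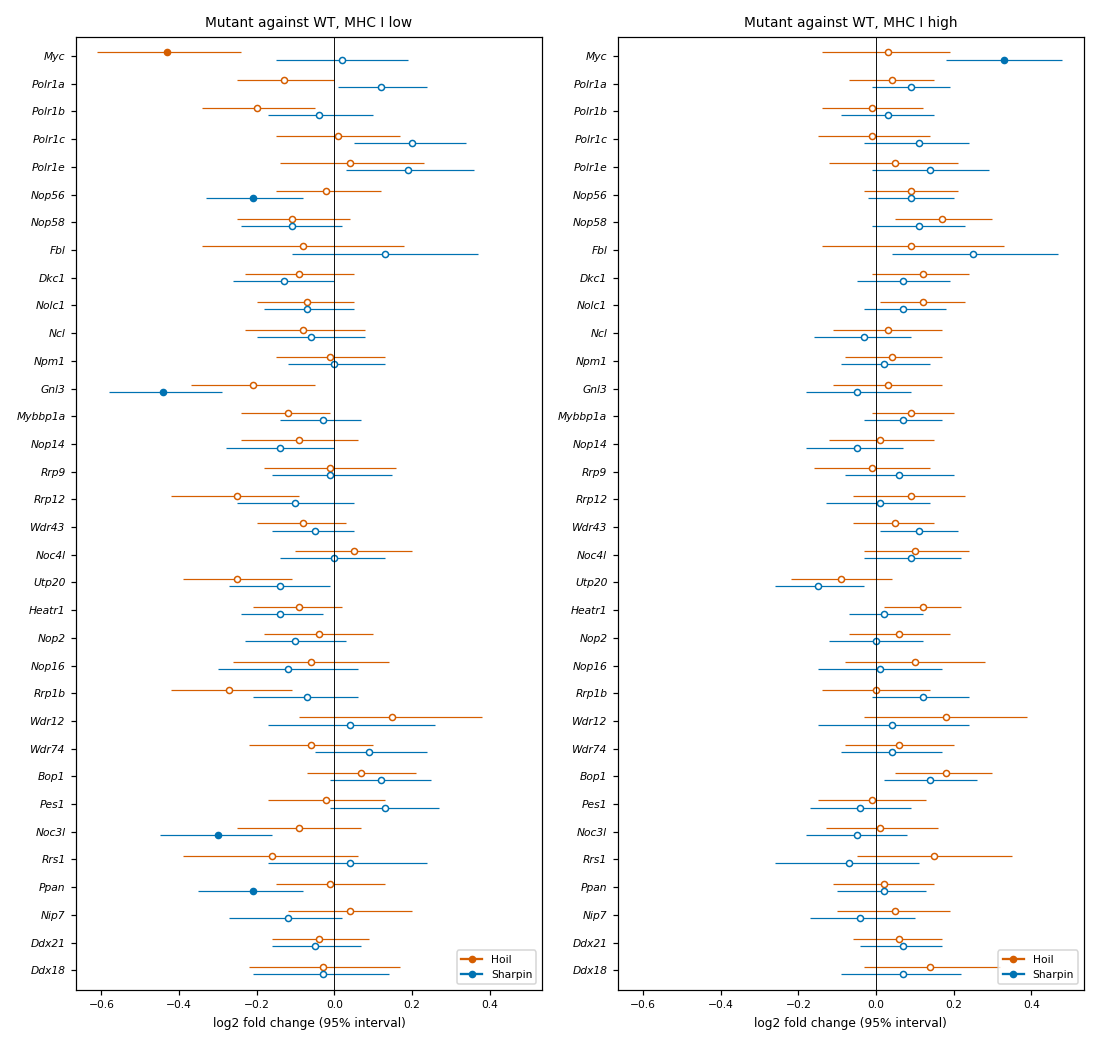
Log2 fold change of the 34 genes in Hoil ΔCd4 (orange) and Sharpin cpdm (blue) against WT, with 95% intervals (x axis), in MHC I low cells (left) and MHC I high cells (right); filled points were called at an adjusted p under 0.05. The 6 filled points are these: Myc in Hoil ΔCd4 low and Sharpin cpdm high, and Gnl3, Nop56, Noc3l and Ppan in Sharpin cpdm low.

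Between the mutants, 0 genes were called higher and 2 lower in Hoil ΔCd4 than in Sharpin cpdm MHC I low cells, where 5.12% of all genes were called higher and 4.36% lower. Beside Myc this was Polr1a, the largest subunit of RNA polymerase I (chr6:71909053-71979435). Polr1a had 97.23, 90.05 and 89.28 CPM in Hoil ΔCd4 and 112.1, 110.5 and 104.4 CPM in Sharpin cpdm, with WT in between at 103.8, 94.4 and 101.6 CPM. The mutants did not overlap, and the log2 fold change was -0.25 (SE 0.0616, adjusted p = 0.00912). This call was lost without Hoil ΔCd4 mouse 3, Sharpin cpdm mouse 1 or Sharpin cpdm mouse 2, with adjusted p up to 0.0665. In MHC I high cells 0 were called higher and 1, Myc, lower, where 3.71% of all genes were called higher and 3.02% lower. The medians of the 34 were -0.009 at the earlier and 0.031 at the later stage.

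Many more of the genes differed between the fractions of a genotype. In WT 4 of 34 were called higher and 17 lower in the high than in the low fraction, where 27.5% of all genes were called higher and 26.8% lower. The median of the 34 was -0.167, beside -0.004 over all genes. In Hoil ΔCd4 9 were called higher and 5 lower, against 23.5% and 21.7% of all genes, with a median of -0.014. In Sharpin cpdm 9 were called higher and 11 lower, against 27.2% and 27.4% of all genes, with a median of -0.076. Without the mouse whose MHC I high library stood apart, the Hoil ΔCd4 count went from 14 to 10.

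Of the regulator and the polymerase, Myc was higher in MHC I high cells in all 3 genotypes, by 0.28 in WT (adjusted p = 0.00102), 0.73 in Hoil ΔCd4 (adjusted p = 3.41e-08) and 0.59 in Sharpin cpdm (adjusted p = 6.79e-08). All 3 calls held in all 18 alternatives, and in Hoil ΔCd4 the value was 0.63 without mouse 2. Polr1e, a polymerase I subunit, was lower in all 3 genotypes, with log2 fold changes of -0.36, -0.35 and -0.41. The core subunits Polr1a and Polr1b were called higher in Hoil ΔCd4 (0.27 and 0.23), while Polr1c, shared with RNA polymerase III, was called in no genotype.

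Among the snoRNP genes, Dkc1, the pseudouridine synthase of box H/ACA particles, was higher in MHC I high cells in every genotype, by 0.13, 0.33 and 0.33 in WT, Hoil ΔCd4 and Sharpin cpdm. Nop58 was called higher in Hoil ΔCd4 and Sharpin cpdm (0.24 and 0.19) and gave -0.04 in WT. Nop56 was called in Sharpin cpdm alone (0.18, adjusted p = 0.0042). Nolc1, a nucleolar chaperone of snoRNPs, was called in WT alone (-0.24). Fbl, the methyltransferase of box C/D particles, was called in no genotype, with values from -0.19 to -0.02.

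Of the nucleolar proteins, Npm1 was higher in each genotype (0.34, 0.40 and 0.37). Its count may include reads shared with processed pseudogenes. Ncl was called nowhere. Gnl3 was called in opposite directions, lower in WT (-0.21, adjusted p = 0.00267) and higher in Sharpin cpdm (0.18, adjusted p = 0.0162). Both of these calls were lost when single mice were left out, in WT without mouse 3 and in Sharpin cpdm without mouse 2 or mouse 3. Mybbp1a, a MYB-binding nucleolar protein, was called lower in WT and Sharpin cpdm (-0.23 and -0.13).

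Of the 7 small-subunit factors, 3 were lower in WT: Rrp12, an export factor (-0.34), Heatr1, needed for transcription of the precursor (-0.29), and Noc4l (-0.21). In Hoil ΔCd4 none of the 7 was lower, and Wdr43, a processome component, was higher (0.15). In Sharpin cpdm Rrp12 and Heatr1 were lower (-0.24 and -0.13) and Wdr43 was higher (0.18). Nop14, Rrp9 and Utp20 were called in no genotype.

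Of the 11 large-subunit factors, 9 were lower and 1 higher in WT, with a median of -0.232. In Hoil ΔCd4 4 were lower and 2 higher, and in Sharpin cpdm 6 were lower and 2 higher. Ppan fell by 0.48, 0.45 and 0.25 and Bop1 by 0.29, 0.18 and 0.27 in WT, Hoil ΔCd4 and Sharpin cpdm on the log2 scale. Wdr12 rose by 0.33, 0.37 and 0.33. Its protein forms the PeBoW complex with BOP1 and PES1, and Pes1 was lower in WT and Sharpin cpdm (-0.14 and -0.31). Noc3l and Nip7, a factor of late precursor processing, were lower in WT (-0.36 and -0.22) and in Hoil ΔCd4 (-0.26 and -0.22). Nop2, an rRNA methyltransferase, Wdr74, which works with an AAA ATPase on the precursor, and Rrs1, of the 5S particle, were lower in WT (-0.23, -0.24 and -0.24) and in Sharpin cpdm (-0.13, -0.29 and -0.34). Nop16 was lower in WT alone (-0.20). Rrp1b was higher in Hoil ΔCd4 and Sharpin cpdm (0.38 and 0.31). Of the 5 genes with an E-box in the window, Nop2, Pes1 and Mybbp1a were thus called lower in WT, and Wdr43 and Utp20 were not called there. Of the helicases, Ddx18 was lower in WT and Sharpin cpdm (-0.28 and -0.18) and Ddx21 was called in none.

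**Figure D3:**
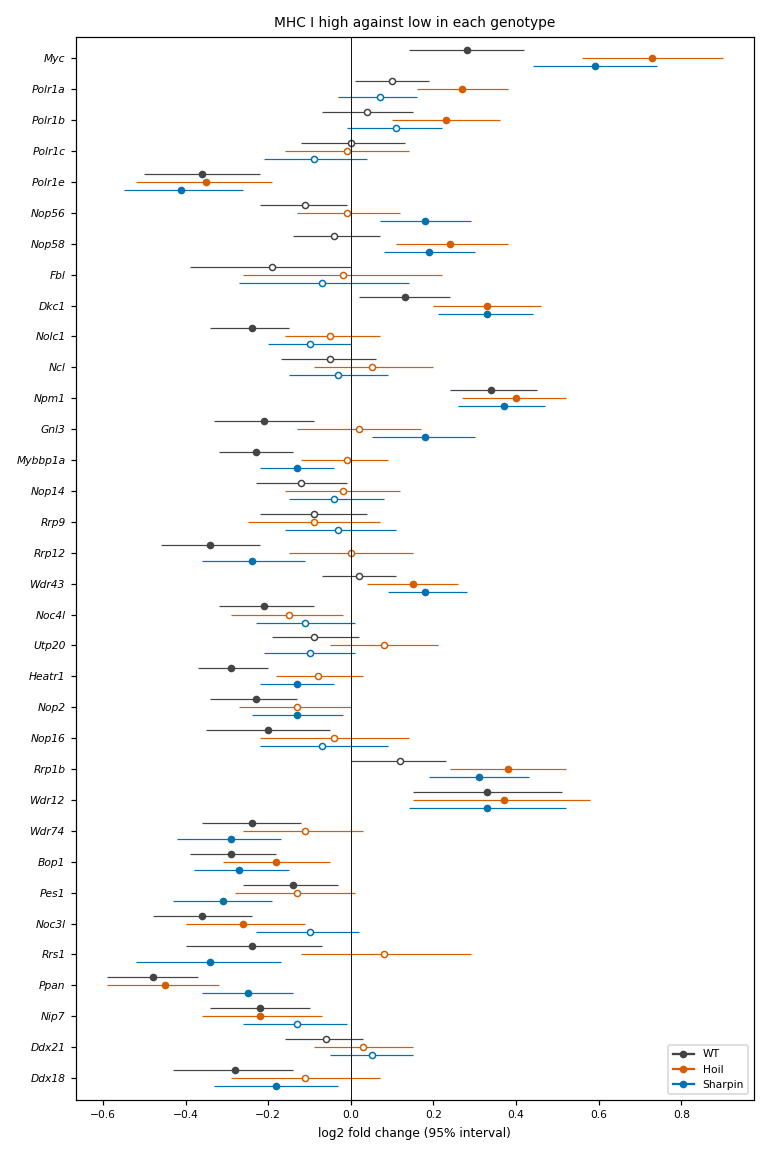
Log2 fold change of MHC I high against MHC I low cells, with 95% intervals (x axis), for the 34 genes (y axis) in WT (grey), Hoil ΔCd4 (orange) and Sharpin cpdm (blue); filled points were called. Myc, Dkc1, Npm1 and Wdr12 lie to the right and Polr1e, Bop1 and Ppan to the left in all 3 genotypes.

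Whether this step between fractions differed by genotype was tested directly. For Hoil ΔCd4 minus WT, limma, edgeR and DESeq2 called none of the 34 in either direction, where limma called 0.297% of all genes higher and 0.102% lower. At an unadjusted p under 0.05 there were 12. Of the 34, 32 were fitted above 0, with a median of 0.129 beside 0.003 over all genes. The genes come from the same libraries, so their directions are not independent. In Hoil ΔCd4 12 genes called lower in WT were not called, among them Rrp12, Heatr1, Rrs1 and Nolc1, but no gene passed the test of the difference itself. The lowest adjusted p was that of Myc (0.45, SE 0.107, adjusted p = 0.0562), which was called in 3 of 18 alternatives. In simulated data for the corresponding Sharpin cpdm contrast, a log2 change of 0.4 was recovered in 30.3% of genes at or above 10 CPM, so a change of that size was more often missed than called there. The Hoil ΔCd4 contrast itself was not simulated.

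For Sharpin cpdm minus WT, 2 of 34 were called higher and none lower, where 2.2% of all genes were called higher and 0.93% lower. These were Gnl3 (0.39, SE 0.0851, adjusted p = 0.00837) and Nop56 (0.29, SE 0.072, adjusted p = 0.0195). In MHC I high cells Gnl3 was 100.7, 93.17 and 94.68 CPM in WT and 83.79, 92.22 and 101.9 CPM in Sharpin cpdm, so the groups that were apart at the earlier stage overlapped at the later. Nop56 was 133.8, 127.1 and 125.8 CPM in WT and 124.8, 134.2 and 148.9 CPM in Sharpin cpdm MHC I high cells, again with overlap. edgeR called neither gene. The median of the 34 was 0.101, beside -0.005 over all genes. The Hoil ΔCd4 and Sharpin cpdm contrasts share the WT libraries.

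Markers of other states moved with these comparisons, and their part in the results was not tested. The 10 cycling markers were all higher in MHC I high cells in each genotype. Their summed level ran from 350.2 to 392.1 CPM in WT low and 959.1 to 1035 CPM in WT high cells, from 378.9 to 408.6 CPM in the low and 1306 to 1627 CPM in the high fraction of Hoil ΔCd4, with 321.3 to 406 CPM and 1159 to 1590 CPM for Sharpin cpdm. Against WT in MHC I high cells, 9 of 10 were called higher in Hoil ΔCd4 and 7 of 10 in Sharpin cpdm. Rag1, Rag2, Dntt, Ptcra and Arpp21, markers of the preceding double-positive stage, summed to 192.9 to 212.6 CPM in WT, 269 to 428.5 CPM in Hoil ΔCd4 and 229 to 318.3 CPM in Sharpin cpdm MHC I high cells. Both mutants lay above WT, and 5 of 5 were called higher in Hoil ΔCd4 and 3 of 5 in Sharpin cpdm. At the earlier stage the sums were 282.2 to 295.9 CPM in WT, 308.5 to 351.5 CPM in Hoil ΔCd4 and 216.1 to 242.9 CPM in Sharpin cpdm, again without overlap, in opposite directions from WT. At the earlier stage none of the 10 cycling markers and none of these 5 was called between Hoil ΔCd4 and WT, where Myc was lower. Of the 10, 9 were fitted above 0 there, as were all 5 double-positive markers. Klf2, S1pr1, Ccr7 and Il7r, markers of mature single-positive cells, summed to 545.4 to 556 CPM in WT, 456.6 to 490.4 CPM in Hoil ΔCd4 and 663.5 to 686.4 CPM in Sharpin cpdm MHC I low cells. Il7r was the largest part of the WT and Hoil ΔCd4 sums, with means of 383.7 and 318.4 CPM. Against WT, 1 of the 4 was called lower in Hoil ΔCd4 low cells and 2 were fitted above 0. In the high fraction these 4 markers summed to 910.8 to 976.1 CPM in WT, 779.7 to 825.5 CPM in Hoil ΔCd4, under all WT values, and 953 to 1032 CPM in Sharpin cpdm. There 1 of 4 was called lower in Hoil ΔCd4, and all 4 were fitted below 0 with an unadjusted p under 0.05. From the low to the high fraction 3 of the 4 were called higher and 1 lower in each genotype. In WT the mean of Il7r went from 383.7 to 286.2 CPM. Against WT in the low fraction of Sharpin cpdm, where Gnl3, Noc3l, Nop56 and Ppan were lower, 1 cycling marker was called higher and 2 lower, 1 of the 5 double-positive markers was lower, and 2 of these 4 single-positive and 4 of 5 T-cell markers were higher. Summed B-cell markers were at most 5.94 CPM, thymic epithelial markers at most 11.82 CPM, myeloid markers at most 13.76 CPM and erythroid markers at most 1.665 CPM in any library.

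**Figure D4:**
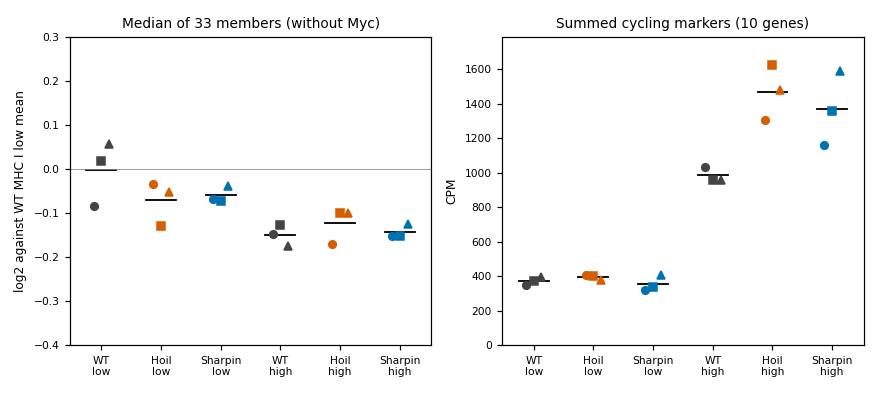
For each of the 18 libraries, the median log2 difference of the 33 ribosome biogenesis genes without Myc from the WT MHC I low mean (left) and the summed CPM of 10 cycling markers (right), by group (x axis); symbols are mice 1 to 3 and bars are group means. The medians run from -0.175 to 0.057, while the cycling markers lie at 321.3 to 408.6 CPM in low and 959.1 to 1627 CPM in high cells.

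Other genes of the same machinery were counted the same way. Of 42 further large-subunit factors, 29 were called lower and 4 higher in WT MHC I high against low cells, 17 lower and 2 higher in Hoil ΔCd4, with 19 lower and 6 higher in Sharpin cpdm. Of 37 further small-subunit factors these counts were 18 and 3, 12 and 2, and 16 and 2. Between Hoil ΔCd4 and WT, Riok2, a kinase of small-subunit maturation, was the single gene of these lists called in MHC I low cells (-0.32, adjusted p = 0.0347), and none was called in MHC I high cells. The Riok2 call was lost in 8 of 18 alternatives, among them the omission of any Hoil ΔCd4 or WT mouse, with adjusted p up to 0.149. Between Sharpin cpdm and WT MHC I low cells, Mdn1, the AAA+ ATPase that remodels the large-subunit precursor, was lower (-0.40, adjusted p = 3.25e-05), as were Mphosph10 (-0.26) and Krr1 (-0.24) of the small-subunit processome, whereas the helicase Ddx24 was higher (0.27). The Krr1 call was lost without Sharpin cpdm mouse 2 or WT mouse 3, and the Mphosph10 call with Xist as a covariate. None of 11 other polymerase I genes and none of 12 other snoRNP genes was called against WT in either mutant and fraction. Of all genes, 0.422% were called higher and 0.563% lower in Hoil ΔCd4 low cells, and 3.84% and 2.81% in the high fraction. For Sharpin cpdm the shares were 5.31% and 6.92% in the low and 4.15% and 4.47% in the high fraction. With lists this short, a lack of calls does not set them apart from all genes.

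Of 10 tested partners and antagonists of MYC, none was called between Hoil ΔCd4 and WT. Of all genes, 0.422% were called higher and 0.563% lower there in the low and 3.84% and 2.81% in the high fraction. With 10 genes, a lack of calls is thus near the share of all genes. For Sharpin cpdm against WT the shares were 5.31% and 6.92% in the low and 4.15% and 4.47% in the high fraction. Mga, a MAX-binding repressor, was lower in Sharpin cpdm MHC I low cells (-0.37, adjusted p = 2.64e-05). In Sharpin cpdm MHC I high cells Mxd1, an antagonist of MYC, was lower (-0.51, adjusted p = 0.000174), and Mxd3, of the same family, was higher (0.64, adjusted p = 0.0253). The Mxd3 call was lost in 8 of 18 alternatives, among them the omission of any WT mouse or of Sharpin cpdm mouse 2 or 3, and the Mxd1 call without WT mouse 3.

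Of 22 growth and metabolism genes linked to MYC, Odc1, the rate-limiting enzyme of polyamine synthesis, was the only gene called lower in Hoil ΔCd4 MHC I low cells (-0.40, adjusted p = 0.0193), with no gene higher. Of all genes, 0.563% were called lower there and 0.422% higher. The Odc1 call was lost in 5 of 18 alternatives, namely with the compared groups alone and without Hoil ΔCd4 mouse 2 or 3 or WT mouse 1 or 3, with adjusted p up to 0.182. In the high fraction of Hoil ΔCd4, 9 were called higher and none lower, among them Tfrc, the transferrin receptor (0.31, adjusted p = 0.000463), and Atic, of purine synthesis (0.42, adjusted p = 0.000525). Of all genes, 3.84% were called higher and 2.81% lower in that comparison. The Tfrc call was lost without WT mouse 3, and the Atic call without WT mouse 1 or 3. In Sharpin cpdm 3 were higher and 1 lower in MHC I low cells, and 1 was higher and 1 lower in MHC I high cells. The shares of all genes called higher and lower were 5.31% and 6.92% in the low and 4.15% and 4.47% in the high fraction. Mat2a, which makes S-adenosylmethionine, was the lower gene in both (-0.51 and -0.27), and Tfrc was the higher gene in MHC I high cells (0.30).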

How the data were processed

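RNA was sequenced from 18 libraries, 2 fractions from each of 9 mice. The deposited files hold raw counts per gene, which the authors made by mapping 75-base single-end reads to mm10 with Rsubread and counting with featureCounts (versions and strand setting not given in the sources used here). Without a stated strand setting, how reads in overlapping genes were assigned is not known.

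Genes without a match among RefSeq names, predicted genes, Y-linked genes and Xist were left out, as were genes without 0.5 CPM in at least 3 libraries, leaving 12798. Counts were scaled by TMM in edgeR 4.0.16 and fitted as log2 CPM (prior count 1) in limma 3.58.1 (R 4.3.3) over all 6 groups, with sample quality weights, an abundance trend and robust moderation. Mouse was a random block, since the labels give both fractions of a mouse; same-mouse correlations of deviations were 0.0702 to 0.256. Alternatives included edgeR's quasi-likelihood test, DESeq2 1.42.0, other filters, weights and blocks, and leaving out each mouse. Replicates are separate mice.

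All 34 genes are named by role. Of other lists, the 2 called genes with the smallest p in each comparison of a mutant with WT are named. Members and lists were chosen with earlier results of these data known. In 10 simulations of Hoil ΔCd4 against WT MHC I low with 12798 genes, log2 changes of 0.4 and 1 were recovered in 71% and 98.8% of genes at or above 10 CPM, and 6% of calls were false. The simulated libraries held no correlation within mice and no differences in sample quality. Promoter windows came from RefSeq (GRCm38.p6). Of the double-positive markers 5 are reported here, and of the single-positive markers 4.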

Additional observations from a re-analysis of the deposited data

Results flagged for a closer look

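The step between the fractions differed between Sharpin cpdm and WT for 5 of the genes named, by the test of the difference itself in limma. Of all genes, 2.2% were called higher and 0.93% lower in this contrast. Mga, Mxd3 and Mdn1 were named because they were called between Sharpin cpdm and WT in a single fraction. This contrast reuses those values, so their calls here are not independent of that choice. On the log2 scale the difference was 0.39 for Gnl3 (adjusted p = 0.00837), 0.29 for Nop56 (adjusted p = 0.0195), 0.32 for Mga (adjusted p = 0.00513), 1.07 for Mxd3 (adjusted p = 0.0117) and 0.44 for Mdn1 (adjusted p = 0.000561). Of 18 alternative analyses the call held in 13 for Gnl3, 9 for Nop56, 17 for Mga, 11 for Mxd3 and 18 for Mdn1. In WT the mean of Mdn1 went from 549.8 to 458.6 CPM, and in Sharpin cpdm from 409.2 to 479 CPM. The mean of Mxd3 went from 2.24 to 12 CPM in WT and from 1.61 to 18 CPM in Sharpin cpdm. All 5 contrasts compare the same 12 libraries, and 6 of 10 cycling markers and 3 of 5 double-positive markers were called higher in this contrast. Their part was not tested.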

How the results depend on the processing

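Of the 30 log2 fold changes of single genes that were recomputed, none reversed under the 18 alternatives. Of the recomputed values, 77 lost their call, 3 gained one and 460 kept their status. All 198 recomputed medians moved by less than 0.048, the pooled SD between mice of the median of the 34 genes. Some medians, such as -0.014 and -0.009, were themselves smaller than that. For those, this limit does not show that the sign was kept. Counts of genes called were small and less stable. Hoil ΔCd4 against WT ranged from 0 to 2 in MHC I low cells over mice left out (0 without Hoil ΔCd4 mouse 3 or WT mouse 3, 2 without Hoil ΔCd4 mouse 1 or WT mouse 2) and from 0 to 2 in MHC I high cells (2 without Hoil ΔCd4 mouse 1), where an Xist covariate gave 1. Sharpin cpdm against WT in MHC I low cells ranged from 2 to 4 (2 without Sharpin cpdm mouse 2) and was 2 with Xist. In MHC I high cells it ranged from 0 to 1 and was 0 with edgeR, DESeq2 or no weights, and without Sharpin cpdm mouse 2, WT mouse 1 or WT mouse 3. Hoil ΔCd4 against Sharpin cpdm MHC I low gave 6 with edgeR, 6 with DESeq2, 5 without weights, 4 with mouse number as a fixed replicate block, and 1 to 3 over mice left out (1 without Hoil ΔCd4 mouse 3, Sharpin cpdm mouse 1 or 2). In MHC I high cells it was 0 with edgeR, no low-count filter or no weights, and 0 to 1 over mice left out (0 without Hoil ΔCd4 mouse 1, Sharpin cpdm mouse 2 or 3). The fraction counts were 14 to 21 in WT, 10 to 15 in Hoil ΔCd4 and 11 to 20 in Sharpin cpdm, lowest there without mouse 2. The Hoil ΔCd4 minus WT change ranged from 0 to 1 (1, Myc, without Hoil ΔCd4 mouse 1, Sharpin cpdm mouse 1 or WT mouse 2). The Sharpin cpdm minus WT change gave 0 with edgeR or no filter, 1 with DESeq2, no weights or no replicate block, and 0 to 4 over mice left out (0 without Sharpin cpdm mouse 3, WT mouse 2 or 3, 1 without Sharpin cpdm mouse 2, 4 without WT mouse 1). The cause of these changes was not tested.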
